A study of Rattus norvegicus with 6 samples.

Results

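The cytosolic ribosomal protein genes of the rat thyroid were compared between non-pregnant (NP) rats and rats in late pregnancy (LP). Every row of the count tables was taken whose symbol starts with Rpl or Rps followed by a digit, or is Rplp0, Rplp1, Rplp2 or Rpsa. The kinases of ribosomal protein S6 (symbols starting with Rps6k) and Rps19bp1, a binding partner of a ribosomal protein, were left out. This gave 65 of 15388 genes. Of these, 33 encode proteins of the large ribosomal subunit, 19 encode proteins of the small subunit, 8 are paralogues with a symbol of their own, and 5 are copies named as pseudogenes or like genes. A reference list held 46 symbols of the large and 31 of the small subunit, and those beyond the 33 and 19 found, such as Rplp2, Rpl10, Rpl22 and Rpl36a, were not analysed here.

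Thyroids were taken from adult Sprague-Dawley rats, either non-pregnant or on day 18 of pregnancy, with the day of the vaginal plug counted as day 1. The labels name no transgene and no treatment. Each group had 3 samples of polyadenylated RNA, with 2752144 to 2965936 counted reads per NP sample and 3224104 to 3449857 per LP sample. The labels name 3 rats per group, but replicates 2 and 3 of each group differed by no more than counting noise, with a chi-square per degree of freedom of 1.02 in NP and 0.995 in LP, against 3.70 to 4.11 between replicate 1 and either of them. Replicates 2 and 3 were therefore averaged and counted as 1 sample, so that every mean ± SD has n = 2 per group. The main p-values come from a fit that took all 6 samples as separate, so they measure the spread between the 3 samples of a group, which may be partly technical. A fit with replicates 2 and 3 summed is given beside the counts.

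Ribosomal proteins assemble with ribosomal RNA in the nucleolus into a large and a small subunit. The small subunit reads the mRNA, and the large subunit joins the amino acids and carries the tunnel through which the new protein leaves. Many ribosomal protein mRNAs start with a C followed by a run of pyrimidines (the terminal oligopyrimidine tract), through which the mTOR pathway sets how much of each mRNA is translated. Follicular cells of the thyroid secrete thyroglobulin (Tg), the protein on which thyroid hormone is made. Rpl7 was the reference gene of the study's quantitative RT-PCR, which was run on other samples than those sequenced, so the level of Rpl7 in those samples was not measured here.

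The sequences around the annotated transcription start are shown for the 8 genes with the largest falls, for the stalk genes Rplp0 and Rplp1, for the common reference gene Rpl19, and for the muscle paralogue Rpl3l, because these genes carry the results given further on. Each run holds 30 bases before and 20 bases after the start, 5′ to 3′, from RefSeq on build GRCr8, which is not the build the reads were mapped to. The start is the base at position 31 of each run, and the bases after it belong to the first exon. Capitals mark a C followed by at least 5 further C or T inside the window of 10 bases on either side of the start. Only the bases inside this window were searched, so a run that crosses its edge was cut there and may be unmarked.
Rpl4, chr8:73566447-73566496, plus strand: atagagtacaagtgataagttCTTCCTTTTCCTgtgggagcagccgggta
Rps3, chr1:163195757-163195806, minus strand: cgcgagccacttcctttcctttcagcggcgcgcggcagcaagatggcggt
Rpl3, chr7:113507971-113508020, minus strand: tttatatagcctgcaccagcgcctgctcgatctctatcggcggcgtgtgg
Rpl39, chrX:121195877-121195926, minus strand: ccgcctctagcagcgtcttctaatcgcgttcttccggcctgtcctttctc
Rpl24, chr11:58128386-58128435, minus strand: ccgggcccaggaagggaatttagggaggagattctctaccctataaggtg
Rps27, chr2:177964587-177964636, minus strand: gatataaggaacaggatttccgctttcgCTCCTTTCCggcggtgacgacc
Rpl11, chr5:153560783-153560832, minus strand: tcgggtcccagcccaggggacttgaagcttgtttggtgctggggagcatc
Rpl41, chr7:1563478-1563527, minus strand: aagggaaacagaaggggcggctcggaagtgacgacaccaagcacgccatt
Rplp0, chr12:46718371-46718420, minus strand: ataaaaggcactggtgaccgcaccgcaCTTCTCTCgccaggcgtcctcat
Rplp1, chr8:71290853-71290902, minus strand: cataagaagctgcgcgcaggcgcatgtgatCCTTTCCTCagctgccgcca
Rpl19, chr10:83519034-83519083, plus strand: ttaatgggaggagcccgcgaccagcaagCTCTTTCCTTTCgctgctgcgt
Rpl3l, chr10:14258416-14258465, plus strand: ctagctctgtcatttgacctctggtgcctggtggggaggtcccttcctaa

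Of the 8 genes with the largest falls, Rpl4 and Rps27 held such a tract inside the window searched. So did Rplp0, Rplp1 and Rpl19, whereas Rpl3l did not. Rps3 was not counted, because its run of pyrimidines lies mostly upstream of that window, and the counts that follow use the same rule. A promoter sequence was found for 47 of the 65 genes (72.3%). The tract was present in 30 of these 47 (63.8%), against 13.6% of all 33469 rat promoters in the same table and 13.2% of the promoters of the genes tested here. CCGGAAG, the core of sites bound by ETS factors, was found on either strand in 16 of the 47 sequences of 300 bases (34.0%), against 8.75% of all promoters and 17.4% of those of the genes tested. TATAAA was found on either strand in 7 of 47 (14.9%), against 14.2% of all promoters and 6.32% of those of the genes tested. Because fewer than 80% of the genes had a sequence, no fold change was compared between genes with and without a tract. Genes without a promoter sequence included Rpl10l, Rpl15, Rpl23a, Rpl27, Rpl27-l1, Rpl31l4, Rpl32, Rpl34-ps1, Rpl36al, Rpl39l, Rpl7, Rps15-ps2, Rps27a-ps1 and Rps29. The mRNA of Rpl7 was amplified in the study with the pair of primers that follows, shown because every quantitative RT-PCR value was read against it.
Rpl7, primer 1: tgtagaaggtggagacgc
Rpl7, primer 2: aaataccacgggcaatac

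Ribosomal protein mRNA took a smaller share of the reads in LP than in NP. Of all reads counted, the 65 genes held 0.837%, 0.899% and 0.885% in the NP samples (replicates 1, 2 and 3) and 0.638%, 0.711% and 0.701% in the LP samples. Every LP sample lay below every NP sample, with a mean of 0.864% ± 0.039 in NP and 0.672% ± 0.048 in LP (SD, n = 2), a ratio of 0.777. The large subunit genes fell from 0.660% ± 0.028 to 0.499% ± 0.035 and the small subunit genes from 0.179% ± 0.0084 to 0.140% ± 0.013 of the reads (SD, n = 2). The 5 genes with the most reads, Rplp0, Rpl3, Rpl41, Rplp1 and Rpl18, held 42.5% of all ribosomal protein reads. The RNA came from whole glands, so fewer cells rich in these mRNAs and less of each mRNA per cell cannot be told apart.

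Replicate 1 stood apart from replicates 2 and 3 within each group. Among the 37 genes with a mean of at least 100 reads other than Rpl3l, the median level relative to the NP mean, on the log2 scale, lay at -0.05, 0.03 and 0.02 in the NP samples (replicates 1, 2 and 3) and at -0.39, -0.27 and -0.25 in the LP samples. The gap between the groups was wider than the range within either group. When replicate 1 of LP was set against replicate 1 of NP alone, the median log2 difference over the 54 tested genes was -0.27. When the means of replicates 2 and 3 were set against each other it was also -0.27. Over the 38 genes with a mean of at least 100 reads, Rpl3l included, these medians were -0.35 for replicate 1 and -0.27 for replicates 2 and 3. Of the 54 tested genes, 47 were lower in LP in both of these comparisons.

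**Figure D1:**
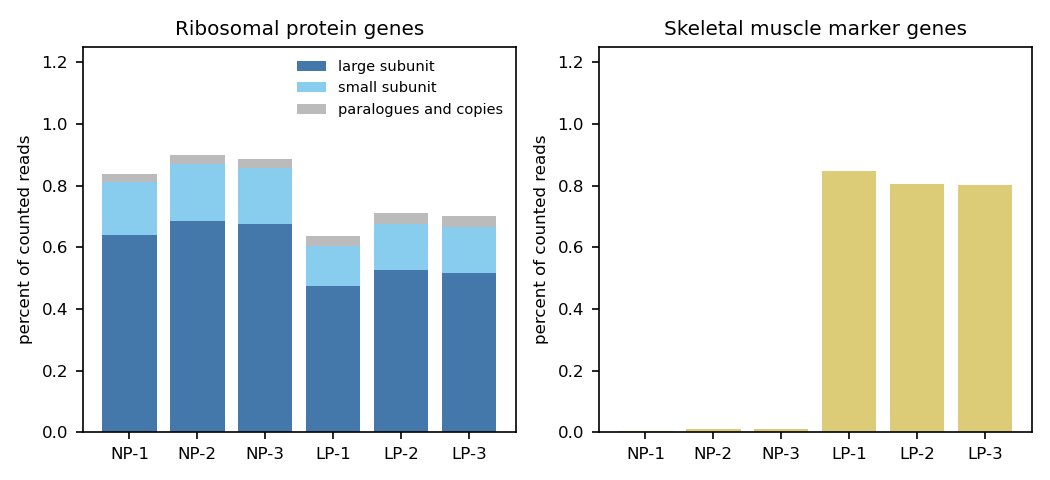
The bars give the percent of counted reads in each of the 3 NP and 3 LP samples that fell on ribosomal protein genes (left, split into large subunit, small subunit, and paralogues with copies) and on 33 skeletal muscle marker genes (right). Ribosomal protein genes took 0.837% to 0.899% of the reads in NP and 0.638% to 0.711% in LP, and muscle markers at most 0.0105% in NP and at least 0.804% in LP.

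Of the 65 genes, 54 passed the filter on low counts. Levels below are in CPM, the usual unit of counts relative to the size of the library, here with TMM scaling, and a gene was called at a Benjamini-Hochberg adjusted p below 0.05 in edgeR's quasi-likelihood test over all 11738 genes tested. In LP, 28 of the 54 were lower (51.9%) and 1, Rpl3l, was higher, while 25 did not pass. Over all genes tested, 11.7% were called lower and 15.3% higher. The median log2 fold change of the 54 was -0.29, a fall of 18.3%, with the middle 50% between -0.40 and -0.20, against a median of -0.01 over all genes tested. The fitted log2 fold change was below 0 for 50 of the 54.

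The 28 genes called lower fell by 13.1% to 34.8%, and no fall reached 2-fold, a size that 5.44% of all genes tested passed in either direction together with the adjusted p. Among the 37 well-counted genes the log2 fold changes had an SD of 0.138 between genes, against a median standard error of 0.0697 for a single gene. In 33 of the 54 genes (61.1%) every LP sample was below every NP sample, against 18.9% of all genes tested. When replicates 2 and 3 were summed within each group, 22 genes were lower and Rpl3l was still the 1 gene higher, against 8.36% lower and 12.3% higher over all genes. The 6 genes lost in that fit were Rpl13a, Rpl32, Rpl34-ps1, Rpl37, Rplp1 and Rps29. In DESeq2, 21 genes were lower, 20 of them among the 28.

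All 28 genes called lower averaged 149 reads per sample or more. Of the 38 genes with a mean of at least 100 reads, 28 were lower (73.7%), against 19.5% of all genes at that depth. None of the 15 genes with a mean of 10 to 99 reads was called in edgeR, although their median log2 fold change was -0.23. With the replicate number as a block, 3 of these 15 were lower. The share of such falls that the test can detect at that depth was not measured.

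**Figure D2:**
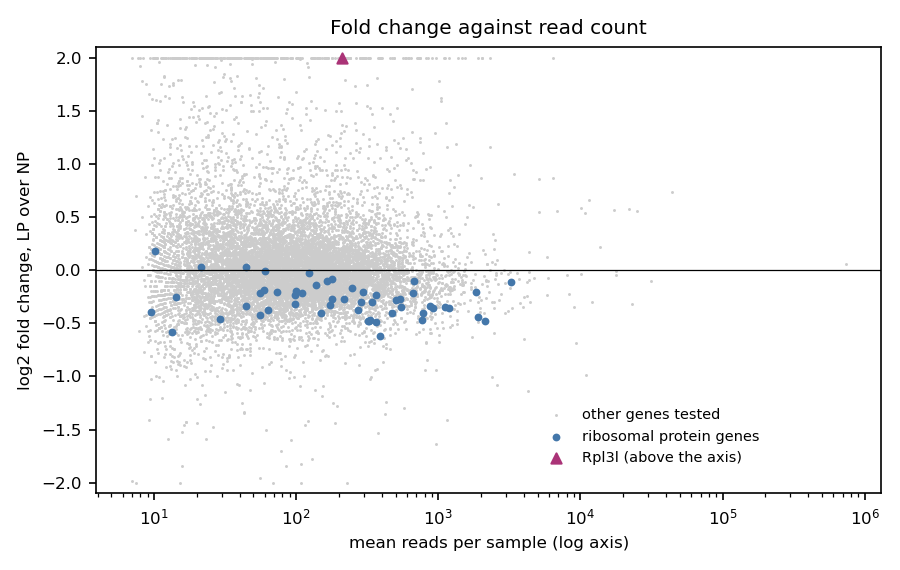
Each point is 1 of the 11738 genes tested, with the mean reads per sample on a log axis against the fitted log2 fold change of LP over NP, which was limited to 2 in either direction for drawing. Ribosomal protein genes (blue) lie mostly below 0, around their median of -0.29, and Rpl3l (triangle) lies beyond the upper limit at 7.48.

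Most large subunit genes were lower in LP. Of 29 tested, 19 were lower and none was higher (28 below 0), with a median log2 fold change of -0.34, and 15 were lower with replicates 2 and 3 summed. The largest fall was that of Rpl4, which lines the exit tunnel. Its level was 166, 145 and 149 CPM in NP and 90.7, 105 and 103 CPM in LP, a mean of 157 ± 13 against 97.5 ± 9.6 (SD, n = 2) and a log2 fold change of -0.62 ± 0.070 (SE, adjusted p = 2.48e-06). Its groups were far apart, with the highest LP sample well below the lowest NP sample.

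Rpl3, which lies beside the center where peptide bonds are formed, was at 785, 815 and 788 CPM in NP and at 521, 601 and 588 CPM in LP. Its log2 fold change was -0.48 ± 0.053 (SE, adjusted p = 1.71e-06), and the groups did not overlap. Rpl39, another protein of the exit tunnel, was at 116, 129 and 123 CPM in NP and at 76.3, 98.2 and 89.7 CPM in LP (log2 fold change -0.47 ± 0.079 SE, adjusted p = 0.000193). LP replicate 1 was the lowest sample for Rpl4, Rpl3 and Rpl39 alike.

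Rpl24, which takes part in a bridge between the subunits, was at 114, 117 and 131 CPM in NP and at 81.1, 93.7 and 85.5 CPM in LP (log2 fold change -0.47 ± 0.072 SE, adjusted p = 7.11e-05). Rpl11 and Rpl5 bind a small ribosomal RNA together and can hold back Mdm2, the ligase that degrades p53, when ribosome assembly is disturbed. Rpl11 was at 292, 299 and 277 CPM in NP and 199, 225 and 203 CPM in LP (log2 fold change -0.47 ± 0.061 SE, adjusted p = 1.43e-05). Rpl5 was at 102, 98.6 and 96.2 CPM in NP and 78.5, 80.3 and 70.0 CPM in LP (log2 fold change -0.37 ± 0.069 SE, adjusted p = 0.000504). Both genes were lower in every LP sample than in any NP sample. Rpl41, which encodes a very short basic peptide, was at 668, 722 and 731 CPM in NP and 481, 557 and 524 CPM in LP (log2 fold change -0.44 ± 0.056 SE, adjusted p = 1.05e-05). Rpl18 was at 420, 438 and 438 CPM in NP and 326, 352 and 336 CPM in LP (log2 fold change -0.35 ± 0.051 SE, adjusted p = 4.33e-05). In neither gene did the groups overlap.

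The genes of the acidic stalk, which draws elongation factors to the ribosome, had smaller differences. Rplp0, its base, was at 1033, 1087 and 1099 CPM in NP and at 975, 995 and 1015 CPM in LP. The groups did not overlap, but the log2 fold change of -0.11 ± 0.040 (SE) had an adjusted p of 0.0550. The call depended on the test, with an adjusted p of 0.0395 in DESeq2, 0.0221 without NP replicate 1 and 0.217 with replicates 2 and 3 summed. With the replicate number as a block it was 1.2e-05, and 0.000491 with that block and replicates 2 and 3 summed. Rplp1 was at 576, 680 and 655 CPM in NP and at 499, 565 and 595 CPM in LP, so that LP replicate 3 lay above NP replicate 1. It was the 1 gene called lower whose groups overlapped (log2 fold change -0.20 ± 0.067 SE, adjusted p = 0.0321). The call was lost with replicates 2 and 3 summed (adjusted p = 0.125), and when LP replicate 1 (0.108), LP replicate 2 (0.0627), NP replicate 2 (0.137) or NP replicate 3 (0.0957) was left out.

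Among the other large subunit genes called lower, log2 fold changes ran from -0.41 for Rpl13a to -0.20 for Rpl32 and included Rpl37a (-0.40), Rpl23 (-0.40), Rpl19 (-0.34), Rpl37 (-0.33), Rpl14 (-0.30) and Rpl26 (-0.30). The 10 large subunit genes that did not pass were Rpl9, Rpl29, Rpl17, Rpl27a, Rpl27, Rpl28, Rpl35, Rplp0, Rpl15 and Rpl31. Rpl29 passed with the replicate number as a block (adjusted p = 0.0281). Among the others, Rpl35 had 79.3, 88.4 and 85.7 CPM in NP and 69.6, 80.9 and 74.8 CPM in LP (adjusted p = 0.105). Rpl15 had 50.9, 56.9 and 54.7 CPM in NP and 46.2, 55.1 and 50.6 CPM in LP (adjusted p = 0.478).

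**Figure D3:**
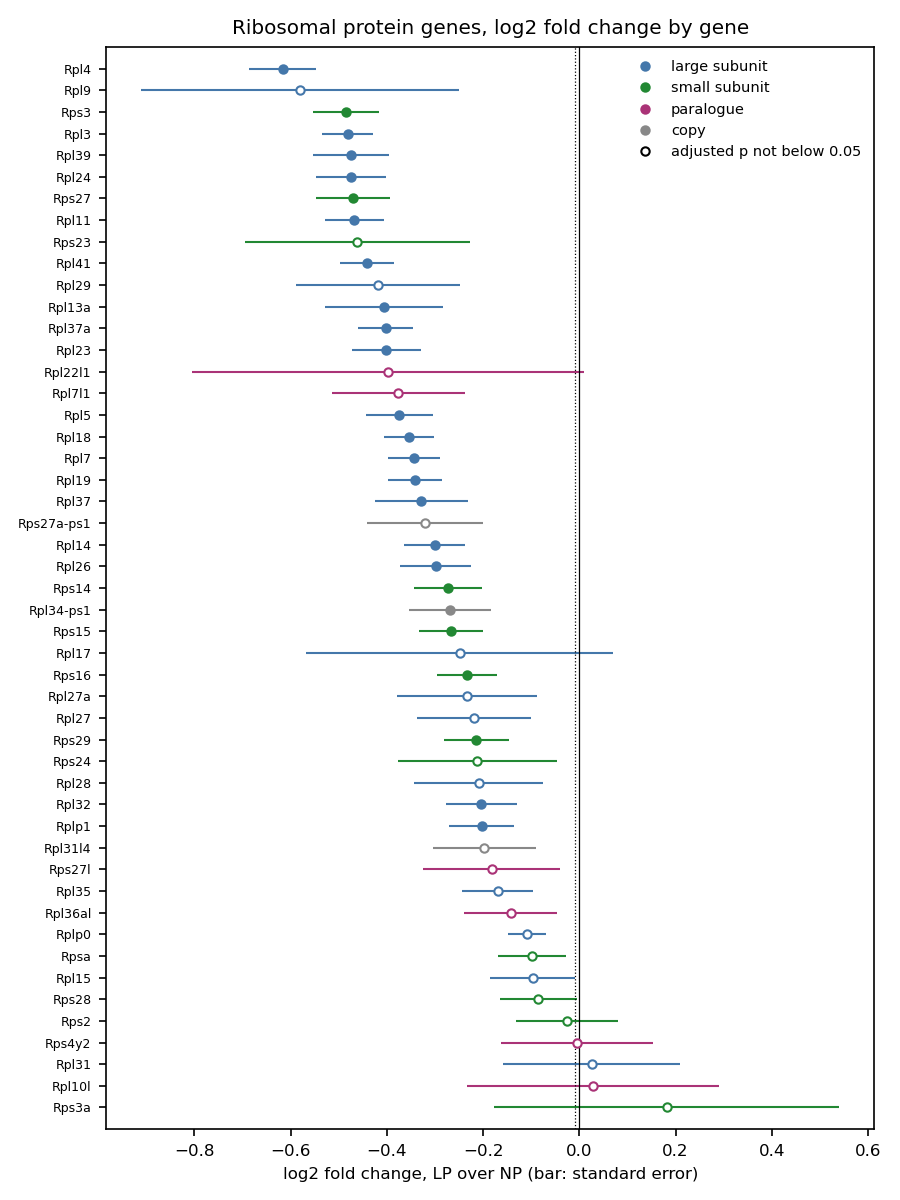
Points give the log2 fold change of LP over NP for 49 of the 53 tested genes other than Rpl3l, with bars of 1 standard error, filled where the adjusted p was below 0.05, and the dotted line marks the median of all genes tested (-0.01). The values run from -0.62 for Rpl4 to 0.18 for Rps3a, and every filled point lies below -0.20.

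Of the 15 small subunit genes tested, 8 were lower and none was higher, with a median log2 fold change of -0.27, and 7 were lower with replicates 2 and 3 summed. Rps3, which lies where the mRNA enters the ribosome, was at 137, 146 and 132 CPM in NP and 92.3, 108 and 95.3 CPM in LP (log2 fold change -0.48 ± 0.068 SE, adjusted p = 3.27e-05). Rps27, a zinc finger protein of the small subunit, was at 126, 122 and 125 CPM in NP and 78.2, 89.3 and 101 CPM in LP (log2 fold change -0.47 ± 0.077 SE, adjusted p = 0.000157). In both genes all LP samples were below all NP samples.

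The small subunit genes called lower also included Rps14 (log2 fold change -0.27), Rps15 (-0.27), Rps16 (-0.23) and Rps29 (-0.21). Rpsa, a small subunit protein that is also known as the precursor of a laminin receptor, was at 208, 233 and 225 CPM in NP and 185, 221 and 216 CPM in LP. Its groups overlapped, and the log2 fold change of -0.10 ± 0.071 (SE) did not pass (adjusted p = 0.348). Rps28 (log2 fold change -0.09, adjusted p = 0.516) and Rps2 (-0.03, adjusted p = 0.896) also did not pass with means of 179 and 123 reads. Rps23, Rps24 and Rps3a did not pass either, with means of 10 to 56 reads.

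**Figure D4:**
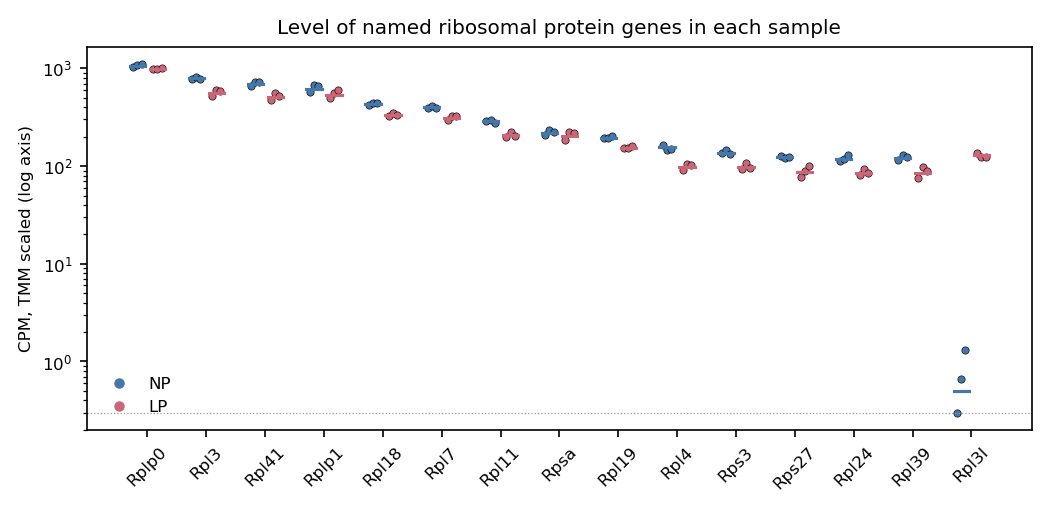
Dots give the level in each sample, in CPM scaled by TMM on a log axis, for 15 named genes in NP (blue) and LP (red), and the lines are group means (n = 2, replicates 2 and 3 averaged). A value of 0 is drawn on the dotted line. Rpl4 lies at 145 to 166 CPM in NP and 90.7 to 105 CPM in LP, whereas Rpl3l lies at 0 to 1.32 CPM in NP and 123 to 138 CPM in LP, and levels of different genes are not comparable because transcript lengths were not used.

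Rpl7 (transcript ENSRNOT00000009431), a large subunit protein, was itself lower in LP. Its level was 397, 414 and 390 CPM in NP and 297, 324 and 324 CPM in LP, a mean of 399 ± 3.7 against 311 ± 19 (SD, n = 2), and the groups did not overlap. The log2 fold change was -0.34 ± 0.054 (SE), a fall of 21.2% (adjusted p = 0.000103). With replicates 2 and 3 summed the adjusted p was 0.00318. A gene whose TMM-scaled level did not differ between the groups would therefore come out 1.27-fold higher in LP when divided by Rpl7 in these sequenced samples. Relative to Rpl7, the log2 fold changes of the 53 tested ribosomal protein genes other than Rpl3l lay between -0.27 (Rpl4) and 0.53 (Rps3a).

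Genes often used as references, Rpl7 among them, were also read as a list. Of the 16 tested, 6 were lower (37.5%, against 11.7% of all genes tested) and 4 were higher (25%, against 15.3%). The count of lower genes was 3 with replicates 2 and 3 summed and 3 without NP replicate 3. The list had a median of 669 reads, and of all genes with a mean of at least 100 reads 19.5% were lower and 19.3% higher. The ribosomal protein genes among them were Rpl7, Rpl19, Rpl13a, Rpl32 and Rplp0. All of these except Rplp0 were among the 6 lower genes and are counted above as well. The only lower genes from outside the ribosome were Actb and Ywhaz. Rpl19 was at 192, 195 and 203 CPM in NP and 152, 155 and 159 CPM in LP (log2 fold change -0.34 ± 0.056 SE, adjusted p = 0.000155), with narrow groups that did not overlap. Rpl13a, which can leave the ribosome to silence inflammatory mRNAs, was at 48.1, 57.5 and 58.3 CPM in NP and 31.7, 44.6 and 47.1 CPM in LP (log2 fold change -0.41 ± 0.12 SE, adjusted p = 0.0208). Its adjusted p was 0.0629 with replicates 2 and 3 summed, 0.0848 in DESeq2, and 0.0797, 0.0722 and 0.0773 without LP replicate 1, NP replicate 2 and NP replicate 3. Rpl32 was at 96.5, 101 and 109 CPM in NP and 80.5, 94.3 and 91.1 CPM in LP (log2 fold change -0.20 ± 0.073 SE, adjusted p = 0.0486). The call of Rpl32 was lost with replicates 2 and 3 summed (adjusted p = 0.0969), in DESeq2 (0.267), and without LP replicate 1 (0.160), LP replicate 3 (0.0737), NP replicate 2 (0.0744) or NP replicate 3 (0.190).

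Among the reference genes outside the ribosome, Actb (actin) had a log2 fold change of -0.24 (adjusted p = 7.9e-05) and Ywhaz, a phosphoprotein-binding adaptor, of -0.17 (adjusted p = 0.016, lost with replicates 2 and 3 summed at 0.129). Sdha, a subunit of mitochondrial complex II, was higher at 0.78 ± 0.049 (SE, adjusted p = 1.03e-09), as were Tfrc, the transferrin receptor (0.61), and Pgk1, a glycolytic enzyme (0.35). B2m, the light chain of MHC class I, had a log2 fold change of -0.03 ± 0.041 (SE, adjusted p = 0.673), and Gusb, Hprt1 and Tbp also did not pass.

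Of the 7 paralogues tested, Rpl3l was higher and the other 6 did not pass. Rpl3l, which takes the place of Rpl3 in the ribosomes of skeletal muscle and heart, had 0, 2 and 4 reads in NP and 429, 419 and 412 reads in LP. These are 0, 0.657 and 1.32 CPM against 138, 125 and 123 CPM, and 3 reads correspond to 0.870 to 1.09 CPM in these samples. The fitted log2 fold change of 7.48 (adjusted p = 9.34e-15) rested on these few NP reads and depends on the prior count of the fit. It was 8.38 without NP replicate 3 and 6.96 without NP replicate 1. The reads of Rpl3l per read of Rpl3 rose from 0, 0.000807 and 0.00167 in NP to 0.264, 0.207 and 0.209 in LP. Rpl3 itself was lower in LP.

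Skeletal muscle transcripts were higher in the same samples. Of 33 muscle marker genes, 30 were tested and 28 were higher, and their summed level was 49.8 to 103 CPM in NP and 8252 to 8749 CPM in LP. The fast myosin Myh1, the myosin light chain Mylpf, Mybpc1, Art1 and Smyd1 were at 0 in all NP samples, and no marker was at 0 in all LP samples. The part of these transcripts in the rise of Rpl3l was not tested. For the ribosomal protein genes as a whole, the share of reads after leaving out the muscle markers was 0.865% ± 0.039 in NP and 0.678% ± 0.048 in LP (SD, n = 2), and 26 genes were lower when the TMM factors were computed without muscle markers and without genes changed more than 2-fold.

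The other paralogues had few reads. Rpl7l1, a nucleolar relative of Rpl7, was at 21.9, 22.7 and 25 CPM in NP and 18.0, 19.6 and 16.1 CPM in LP. Its log2 fold change of -0.38 ± 0.14 (SE) had an adjusted p of 0.0556, 0.0360 with the replicate number as a block, and 0.0507 with that block and replicates 2 and 3 summed. Rps27l, a p53-responsive relative of Rps27, was at 19.7, 22.0 and 18.8 CPM in NP and 16.3, 18.7 and 18.2 CPM in LP (adjusted p = 0.410). Rpl36al was at 42.0, 48.7 and 49.4 CPM in NP and 39.4, 44.6 and 42.9 CPM in LP (adjusted p = 0.312). Rps4y2, Rpl10l and Rpl22l1 had adjusted p of 0.988, 0.955 and 0.530, and Rpl39l did not pass the filter. The sign of the fold changes of Rps4y2 and Rpl10l changed with the scaling. Of the copies, Rpl34-ps1 was lower (57.4, 65.1 and 64.6 CPM in NP, 47.4, 52.4 and 55.4 CPM in LP, adjusted p = 0.0261), with an adjusted p of 0.0671 when replicates 2 and 3 were summed. Rps27a-ps1 (log2 fold change -0.32, adjusted p = 0.06, and 0.0259 with the replicate number as a block) and Rpl31l4 (-0.20, adjusted p = 0.216) did not pass.

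The 11 genes below the filter had at most 10 reads in any sample. They were Rpl6, Rpl23a, Rpl34, Rpl35a, Rps4x, Rps7, Rps10 and Rps19, the paralogue Rpl39l, and the copies Rpl27-l1 and Rps15-ps2. The 8 subunit genes among them encode proteins that every ribosome carries. Rps4x had 2 reads in NP replicate 2, and the mean over all 6 samples was 0.5 reads. Ribosomal protein genes have many near-identical copies in the genome, and reads that match several places can be lost or split in counting. RefSeq (GRCr8) names 594 pseudogene loci after the 52 subunit genes, with a median of 11 per gene. The median was 14.5 (range 4 to 22) for the 8 subunit genes with a mean under 10 reads. It was 11.5 (7 to 27) for the 10 with a mean of 10 to 99 reads. For the 34 with a mean of at least 100 reads it was 9.5 (1 to 34), so the ranges overlapped widely. The part of these copies in the counts was not tested, and the level of any single ribosomal protein gene is uncertain to that extent.

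Other genes of translation are given with the same counts, and the differences between the lists were not tested. Their counts are read against the 11.7% of all genes called lower and the 15.3% called higher. Of all genes with a mean of at least 100 reads, 19.5% were called lower and 19.3% higher. Several lists were counted more deeply than the median of 87.5 reads over all genes tested. Median reads were 279 for initiation factors, 369 for elongation factors and 164 for the mTOR list. Of 59 tested genes of ribosome biogenesis, 16 were lower and 1 was higher, with a median log2 fold change of -0.21. These calls are 27.1% and 1.69% of the list. With replicates 2 and 3 summed 10 were lower, in DESeq2 7 were, and with scaling by library totals 25 were. The largest falls were those of Utp14a, a factor of small subunit processing (-0.73, adjusted p = 0.00192), and Nmd3, which exports the large subunit from the nucleus (-0.63, adjusted p = 0.00353). Dkc1, the pseudouridine synthase of ribosomal RNA, was higher (0.26, adjusted p = 0.00301).

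Of 36 initiation factor genes tested, 11 were lower (30.6%) and 1 was higher (2.78%), with a median of -0.14. The number lower was 7 with replicates 2 and 3 summed, 6 in DESeq2 and 17 with library totals. Eif4a1, the helicase that unwinds the start of the mRNA, had the largest fall (113.8 to 76.2 CPM in mean, log2 fold change -0.57 ± 0.072 SE, adjusted p = 9.25e-06), followed by Eif1b (-0.41). The scaffold gene Eif4g3 was higher (0.49, adjusted p = 4.61e-06). Of 12 elongation and termination factor genes tested, 4 were lower (33.3%) and 1 was higher (8.33%), with a median of -0.17. The number lower was 2 with replicates 2 and 3 summed and 1 in DESeq2. It was 6 with the replicate number as a block and 7 with library totals. Eef1e1, a scaffold protein of the tRNA synthetase complex, had the largest fall (-0.44, adjusted p = 0.0359). Its call was lost with replicates 2 and 3 summed (adjusted p = 0.0769) and in DESeq2 (0.299). Eef1b2, which reloads the elongation factor with GTP, followed (-0.25, adjusted p = 0.00779, with 0.0322 summed and 0.107 in DESeq2). Eef1a2, the elongation factor form of muscle and nerve, rose from 83.5 to 611 CPM in mean (log2 fold change 2.88 ± 0.081 SE, adjusted p = 1.26e-14) in the samples with more muscle transcripts, and the part of those was not tested. Of 6 partners of the ribosome, such as Gnb2l1 (the Rack1 protein), the translationally controlled Tpt1 was lower (-0.24, adjusted p = 0.00210) and the median was -0.10.

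Among 33 genes of RNA polymerases I and III and their factors, 6 were lower (18.2%, against 11.7% of all genes tested) and 3 were higher (9.09%, against 15.3%), with a median of -0.07. Gtf3a, which switches on the genes of the small ribosomal RNA bound by Rpl5 and Rpl11, had the largest fall, from 149.1 to 72.8 CPM in mean (log2 fold change -1.03 ± 0.082 SE, adjusted p = 2.96e-08). Cd3eap, a polymerase I subunit, was also lower (-0.64, adjusted p = 0.0285), whereas the transcription factor gene Myc (0.37, adjusted p = 0.00320) and Bdp1 (0.33, adjusted p = 0.0322) were higher. With replicates 2 and 3 summed, 5 of the 33 genes were lower and 1 was higher. In that fit Cd3eap (adjusted p = 0.0514) and Bdp1 (0.0695) lost their calls, while Myc kept its call (0.0169). The higher count was also 1 with library totals, without LP replicate 3 and without NP replicate 2, and it was 5 with the replicate number as a block. In DESeq2 3 were lower and none was higher, and Cd3eap had an adjusted p of 0.205.

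Of 29 genes of the mTOR and S6 kinase pathway tested, 3 were lower (10.3%, against 11.7% of all genes tested) and 8 were higher (27.6%, against 15.3%). Among all genes with a mean of at least 100 reads, 19.3% were higher. The median log2 fold change of the list was 0.09. The GTPase genes Rragc (-0.30) and Rraga (-0.30), which bring mTOR to the lysosome, were lower (adjusted p = 0.0122 and 0.00290). Their relative Rragd (0.76, adjusted p = 0.000427) and Tsc1, which restrains mTOR (0.65, adjusted p = 0.000767), were higher. In DESeq2 1 gene was lower and 4 were higher.

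Genes named for the mitochondrial ribosome, which serves translation inside the organelle, had a median near 0. They were taken by symbol alone (Mrpl or Mrps followed by a digit), and the place of each product was not checked. Of 72 tested genes 4 were lower (5.56%, against 11.7% of all genes tested) and 8 were higher (11.1%, against 15.3%), with a median log2 fold change of 0.02. With library totals the balance turned to 10 lower and 5 higher. In DESeq2 1 was lower and 4 were higher, and with replicates 2 and 3 summed 4 were lower and 5 higher. The genes took 0.238% ± 0.0014 of the reads in NP and 0.230% ± 0.0019 in LP (SD, n = 2). Mrps6 (-0.63, adjusted p = 3.62e-05) and Mrpl48 (-0.41, adjusted p = 0.00651) were lower, while Mrps36 (0.57, adjusted p = 0.00335) and Mrpl37 (0.51, adjusted p = 0.000244) were higher.

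**Figure D5:**
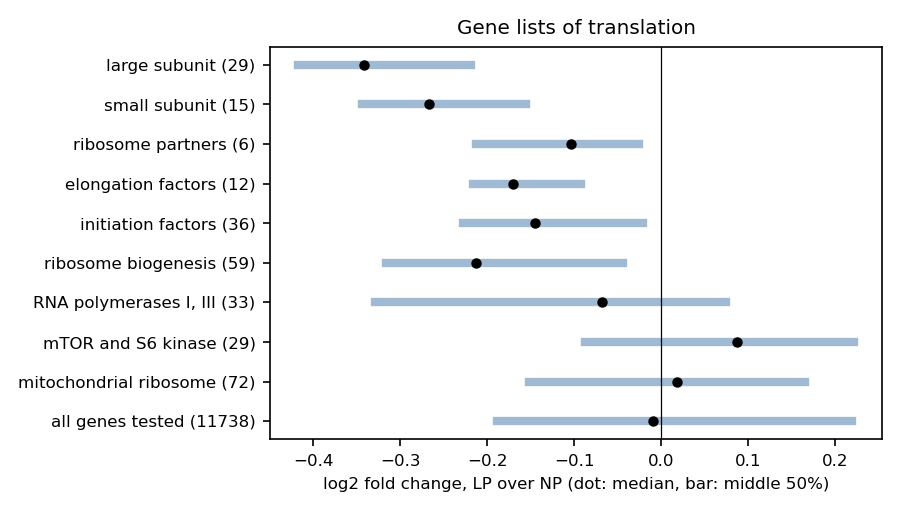
For each gene list (number of genes tested in parentheses) the dot gives the median log2 fold change of LP over NP and the bar the middle 50% of the genes. The large and small subunit genes lie lowest, at medians of -0.34 and -0.27, the mitochondrial ribosome at 0.02 and all genes tested at -0.01.

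The makeup of the gland was followed with marker lists. For comparison, 11.7% of all genes tested were called lower and 15.3% higher. Among genes with a mean of at least 100 reads these shares were 19.5% and 19.3%. Tg held 22.9% to 24.5% of the reads with no gap between the groups, and of 11 follicular cell markers 3 were lower and 3 higher, which checks the tissue label. Of 8 endothelial markers 5 were lower, with a summed level of 770 to 798 CPM in NP and 637 to 654 CPM in LP. The summed level of 8 C cell markers was 14478 to 15481 CPM in NP and 12825 to 13634 CPM in LP (1 lower, 1 higher). That of 3 parathyroid markers was 4474 to 4848 CPM in NP and 3730 to 4045 CPM in LP (1 lower). The median log2 fold changes were -0.08 for the C cell list and 0.10 for the parathyroid list. The lower sums therefore do not stand for most genes of these 2 lists. Airway markers rose from 2.87 to 6.92 CPM in NP to 22.0 to 23.4 CPM in LP (3 higher of 3 tested). Of 18 lymphocyte markers 3 were tested and none passed, with 29.7 to 38.7 CPM in NP and 31.5 to 32.4 CPM in LP, and the fibroblast sums overlapped at 1218 to 2160 and 1503 to 2445 CPM. The macrophage sums were 148 to 170 and 163 to 188 CPM, and the adipocyte sums 141 to 146 and 145 to 160 CPM, with no gene called in either list. The part of the lower endothelial, C cell and parathyroid sums in the fall of the ribosomal protein genes was not tested.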

How the data were processed

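Thyroid RNA was sequenced from TruSeq libraries of polyadenylated RNA on an Illumina HiSeq system. The authors mapped the reads to rn5 with TopHat 1.4.0 (submitters' processing notes), counted them per gene of Ensembl release 81 with HTSeq and tested them with DESeq. The deposited values are raw counts of reads per gene, without normalization, for 15388 genes in each of 6 samples. The strand setting and the treatment of reads with several matches are not given in the sources used here.

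Differences were tested with edgeR 4.0.16 under R 4.3.3 (glmQLFit and glmQLFTest, TMM, filterByExpr) on all 6 samples with group as the only term, and p-values were adjusted by Benjamini-Hochberg over 11738 genes. DESeq2 1.42.0 was an alternative. SE was obtained from the F statistic, as the size of the log2 fold change over the root of F. In the deposited tables replicates 2 and 3 of each group differed within counting noise, so a fit with them summed is given beside counts. Same-numbered samples deviated together (correlations of 0.486, 0.218 and 0.185 over 11680 genes), but replicates 2 and 3 crossed between the groups correlated as well (0.213 in either crossing). A fit with the replicate number as a block was therefore run. Unless replicates 2 and 3 were also summed, that fit took them as separate samples, so its p-values may rest partly on technical spread. A gene with 3 reads lay at 0.870 to 1.09 CPM, which covers counting error only.

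The ribosomal protein genes, the other gene lists and the tests were chosen with earlier results of these data known. Genes named are Rpl7, the stalk genes and Rpsa, paralogues with their parent genes, the 8 largest falls and rises called, the 5 with the highest CPM, reference genes, and up to 2 falls and 2 rises of each list. Rpl5, Rpl15, Rpl35, Rps2, Rps28 and the genes listed by their fold change alone were added after their values were seen. On simulated data with 100 genes per size, edgeR recovered 55% of changes of 0.5 and 100% of changes of 2 on the log2 scale. It made 6 false calls among 11713 genes. DESeq2 recovered 33% and 97% of these changes, with 2 false calls among 15388 genes. These values hold for the simulated samples alone. The share of false calls in the real samples, where the replicates of a group were not equally far apart, was not tested. Alternatives were other scalings, filters, thresholds, a replicate block, DESeq2, and leaving out each sample. A few genes are counted in the totals but not reported here by name.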

Additional observations from a re-analysis of the deposited data

How the results depend on the processing

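The number of ribosomal protein genes lower in LP was 21 to 33 over all alternatives run, against 28, and Rpl3l was the 1 gene higher and the 1 gene past 2-fold in each. With each sample left out in turn the number was 22 to 30, and 22 of the 28 genes were called in all 6 of these fits. Rpl7 kept its call in each alternative, with log2 fold changes of -0.42 to -0.31 (-0.37 to -0.31 with each sample left out). In the fit with a replicate block, 32 genes were lower and 1 was higher, with a median of -0.29. The block added Rplp0, Rpl29, Rpl7l1 and Rps27a-ps1 and lost none of the 28. With replicates 2 and 3 also summed the block gave 31, without Rpl7l1 (adjusted p = 0.0507). The biological coefficient of variation was 0.0131 with the replicate block on all 6 samples, against 0.0645 without the block. With replicates 2 and 3 summed it was 0.01625 with the block and 0.0781 without.

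The median log2 fold change was -0.36 with scaling by library totals, where the median of all genes was -0.08, and -0.34 to -0.24 with each sample left out. The difference in the share of reads was -0.190 percentage points, -0.251 without Tg in the denominator and -0.241 without Tg and muscle markers, since both denominators are smaller. Of genes that were not called, the log2 fold change of Rpl10l (0.03) was -0.043 with library totals, -0.014 with replicates 2 and 3 summed, -0.208 without LP replicate 2, -0.036 without NP replicate 2 and up to 0.212 without other single samples. That of Rps4y2 (-0.005) was 0.014 with TMM factors without muscle and changed genes, 0.0010 without Tg, 0.0062 with a mean of at least 50 reads, 0.026 with replicates 2 and 3 summed, and -0.138 to 0.104 without single samples.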
